A study of Canis lupus familiaris with 7 samples.

Results

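G protein-coupled receptors were examined gene by gene in primary osteosarcomas of 7 dogs. The receptor genes were taken by symbol, as orphan and adhesion receptors named GPR and as the adrenergic, serotonin, muscarinic, dopamine, histamine, glutamate, purine, adenosine, lysophospholipid, prostanoid, angiotensin, bradykinin, endothelin, somatostatin, tachykinin and protease-activated families, together with PTH1R. A probe was a member when the scanner software marked it well above background on at least 3 of the 7 arrays, the size of the smaller group. This rule held 165 probes of 140 symbols before the background mark was read, and 121 probes of 104 genes after it, among 32309 probes of all kinds that passed the same mark. The 44 probes that did not pass left 36 symbols without a member. Of the 104 genes, 7 carried a matching symbol but are not receptors of this class, namely the receptor kinases ADRBK1 and ADRBK2, the immunoglobulin protein PTGFRN, the riboflavin transporter GPR172A, the ion channel subunits HTR3B and HTR3C, and GPR89A.

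RNA of each tumour was hybridised to 1 single-colour (Cy3) Agilent canine array, and 4 tumours labelled DLG2 deleted were compared with 3 labelled DLG2 wild type. DLG2 encodes a membrane-associated scaffold protein, and the comparison asked which transcripts differed with its loss. Deleted tumours 1 to 4 came from a German Shepherd and Collie cross aged 8 years, a Rottweiler cross aged 9, a Greyhound aged 6 and a Great Pyrenees aged 7. Wild-type tumours 1 to 3 came from a Boxer aged 12, a Labrador Retriever cross aged 10 and a Bull Mastiff aged 8. The sex label was MC for deleted tumours 1 and 3 and wild-type tumour 3 and FS for the others. No treatment is given for any dog. Groups were formed by the DLG2 label alone, so the tumours also differ in breed, age and any other lesion they carry. Each sample was whole tumour tissue, in which fewer cells of a type and less RNA per cell cannot be told apart.

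G protein-coupled receptors cross the membrane in several passes and, when a ligand binds outside, activate a heterotrimeric G protein inside. The alpha subunit sets the response, with Gs raising and Gi lowering cyclic AMP and Gq opening the phospholipase C and calcium route. In bone, receptors for parathyroid hormone and prostaglandin E2 act through cyclic AMP on osteoblasts, the cells that lay down bone matrix and that osteosarcoma cells resemble.

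The arrays held between 30280 and 34538 probes well above background, with wild-type tumour 3 at the upper end, and 0 saturated spots. The arrays of wild-type tumours 1 and 2 were closest, with a Pearson correlation of 0.987 over kept probes, and every other pair lay between 0.935 and 0.966. Deleted tumours 2 and 3 and wild-type tumour 2 shared a slide, and the files were extracted in 2 sessions, one with deleted tumours 2, 3 and 4 and wild-type tumour 2. The kept DLG2 probe, on chromosome 21 from 18338004 to 18338063 of canFam2, averaged 10.79 ± 0.47 (SD, n = 4) on the log2 scale among deleted tumours and 11.56 ± 0.58 (SD, n = 3) among wild-type ones, with an adjusted p of 0.710 in limma's moderated test. It lies outside the focal stretch the study names, as far as the coordinates share a build, so whether it checks the labels is unclear. Of 9 osteoblast markers, 5 had a kept probe and 4 of these were above background on all 7 arrays, with ALPL between 12.54 and 16.55 and COL1A1 between 14.08 and 15.95 on the log2 scale.

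The members were thus chosen by the background mark, and receptors at the edge of detection are among them. The 8 members marked on exactly 3 arrays were F2RL2, GPR110, GPR64, GPR85, GRM7, HTR2A, HTR3B and P2RY14. Their lowest log2 intensities lay near those of the probes just outside, which were marked on 2 arrays and belonged to CHRM2, P2RY10, PTGER2 and a further probe of ADRBK1. PTGER2, a prostaglandin E2 receptor, ran from 6.37 to 7.08 and was marked in 2 wild-type and 0 deleted tumours, while GPR85 ran from 6.45 to 7.67 and was marked in 3 wild-type and 0 deleted tumours. Of the 104 genes, 78 were above background on all 7 arrays and 26 on 3 to 6.

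No receptor gene was called between the groups. With limma's moderated test over all 32309 probes, a call needing both a Benjamini-Hochberg adjusted p below 0.1 and an unadjusted one below 0.05, the count was 0 of 104 genes, against 0% of all probes, and the smallest adjusted p of a receptor probe was 0.494. At an unadjusted p below 0.05 stood 7 genes, or 6.73%, beside 7.27% of all probes. GPR137 and GPR171 had higher means in deleted tumours, where the share over all probes was 3.1%, and ADRA1A, GPR55, GPR85, HTR7 and PTGFRN had lower means, where that share was 4.18%. The receptor genes thus passed at about the rate of the whole array. This count was 3 without wild-type tumour 2 and 11 without deleted tumour 4. Without wild-type tumour 3, 46 of all probes and 0 receptor genes were called.

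The values of the 4 deleted and the 3 wild-type tumours did not overlap for 9 genes, or 8.65%, beside 8.14% of all probes. GPR137, GPR146, GPR171 and GPR39 were higher in every deleted tumour, with 3.9% over all probes, and GPR55, GPR85, PTGFRN, PTGIR and TACR3 were lower in every deleted tumour, with 4.23%. With 75th percentile scaling in place of quantile normalization the estimates of GPR55, PTGIR and TACR3 turned to 0.34, 0.57 and 0.69. That scaling moved the median of all probes by 0.32 as well. It was applied to background-corrected intensities. Applied to the scanner software's processed intensities, the same scaling kept the sign of these genes. Estimates given below for 75th percentile scaling use the background-corrected intensities unless processed signals are named. The number of genes without overlap was 12 without deleted tumour 3 and 14 to 19 without any other tumour, where fewer tumours also make separate groups more frequent.

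Most receptors differed little. The mean was higher in deleted tumours for 57 genes and lower for 47, and the median difference, deleted minus wild-type, was 0.02 on the log2 scale beside 0.00 over all probes. The estimate lay within 0.2 of 0 for 74 genes and reached 0.5 in either direction for 9. The SD within a group had a median over genes of 0.17 among deleted and 0.13 among wild-type tumours. The range over the 7 tumours, which cannot be smaller than the difference of the group means, ran from 0.12 to 3.53. Its median was 0.57, beside 0.73 over all probes, and it reached 1 log2 unit, a doubling of intensity, for 23 genes.

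**Figure D1:**
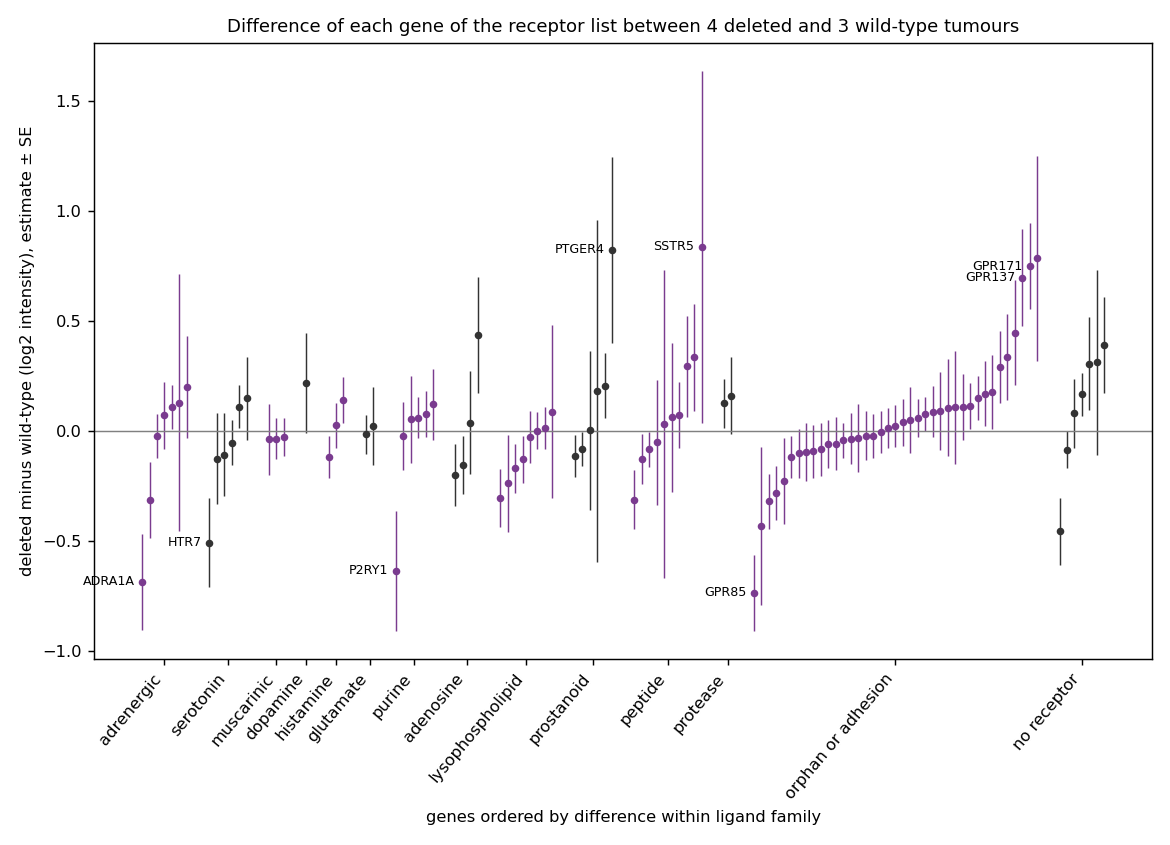
Estimated difference, deleted minus wild-type, of each of the 104 genes on the log2 intensity scale, with its standard error, ordered within ligand family; "no receptor" marks the 7 genes whose symbol matched but which are not receptors. Most estimates sit within 0.2 of 0, and SSTR5, at 0.84, has the widest error among the labelled genes.

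Adrenergic receptors bind adrenaline and noradrenaline. All 7 symbols on the array had a member, 4 with a higher and 3 with a lower mean in deleted tumours. ADRA1A, a Gq-coupled alpha1 receptor, read 9.33, 9.78, 9.18 and 9.03 across deleted tumours 1 to 4, against 9.66, 10.17 and 10.21 for wild-type tumours 1 to 3. Deleted tumour 2 lay above wild-type tumour 1, so the groups overlapped at that point. The difference was -0.69 ± 0.22 (SE) with an unadjusted p of 0.0171 and an adjusted p of 0.586, and the exact permutation test over the 35 splits of 7 tumours into 4 and 3 gave p = 0.114. The smallest p that test can give is 0.0571. The gene has a further member probe, and both are shown because they sample stretches far apart in the gene.
ADRA1A, brighter probe, chr25:33684858-33684917: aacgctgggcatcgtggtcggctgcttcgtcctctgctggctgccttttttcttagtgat
ADRA1A, dimmer probe, chr25:33785783-33785842: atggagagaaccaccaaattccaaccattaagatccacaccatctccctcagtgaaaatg
The dimmer probe differed by -0.31 ± 0.18 (SE), in the same direction, with an unadjusted p of 0.125.

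ADRA1D, another alpha1 receptor, differed by -0.31 ± 0.17 (SE, adjusted p = 0.774), with deleted tumour 2 at 9.15 above every wild-type tumour and the other deleted tumours between 8.46 and 8.68. ADRA2A, a Gi-coupled receptor that also brakes noradrenaline release, had probes of opposite sign, at 0.20 ± 0.23 and -0.03 ± 0.17 (SE), both smaller than their errors or close to them. ADRB3, the beta3 receptor known from fat cells, read 12.74, 11.88, 13.94 and 13.94 across deleted tumours 1 to 4, against 13.66, 13.04 and 12.30 for wild-type tumours 1 to 3. High and low tumours occurred in both groups, and the difference of 0.13 ± 0.59 (SE) changed sign under 6 of 19 other settings, among them 75th percentile scaling at -0.19.

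Serotonin receptors had 6 members among 10 symbols. HTR7, a Gs-coupled receptor, read 6.90, 6.64, 6.75 and 6.75 across deleted tumours 1 to 4, against 7.24, 7.71 and 6.85 for wild-type tumours 1 to 3. Wild-type tumours 1 and 2 lay above all others, and wild-type tumour 3 lay within the range of the deleted tumours. Both of its probes were lower in deleted tumours, by -0.51 ± 0.20 (SE) for the brighter and -0.39 ± 0.14 (SE) for the dimmer, with unadjusted p of 0.0403 and 0.0274 and adjusted p of 0.673 and 0.634 in limma. With 75th percentile scaling the brighter probe stood at 0.07, or -0.24 relative to the median of all probes under that scaling. The probes are printed because they lie apart in the gene and both put wild-type tumour 2 highest.
HTR7, brighter probe, chr28:8443696-8443755: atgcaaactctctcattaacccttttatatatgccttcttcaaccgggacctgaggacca
HTR7, dimmer probe, chr28:8438096-8438155: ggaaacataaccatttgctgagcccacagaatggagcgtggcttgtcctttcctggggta
HTR2B, a Gq-coupled serotonin receptor, differed by 0.11 ± 0.10 (SE, adjusted p = 0.890). The other members of the family lay between -0.13 and 0.15.

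The muscarinic, dopamine, histamine and glutamate receptors, best known from nerve cells and, for histamine, from mast cell signalling, had 3, 1, 3 and 2 members. Their estimates ran from -0.12 for HRH1 to 0.22 for DRD2, and 0 of these 9 genes passed an unadjusted p below 0.05. DRD2 was highest in deleted tumour 1, at 8.10, where the other tumours read 7.16 to 7.57.

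Purine receptors answer extracellular nucleotides, and 6 of 8 symbols had a member. P2RY1, a Gq-coupled ADP receptor, read 6.76, 6.84, 6.94 and 7.78 across deleted tumours 1 to 4, against 7.49, 7.67 and 7.99 for wild-type tumours 1 to 3. Deleted tumour 4 stood with the wild-type tumours, while the other 3 deleted tumours lay below every wild-type tumour. The difference was -0.64 ± 0.27 (SE), with an unadjusted p of 0.0534 and an adjusted p of 0.688. Platelet and megakaryocyte markers, which share P2RY1 and P2RY12 as genes of that lineage, had 3 of 5 genes with a kept probe. Their summed log2 intensity ran from 22.03 to 22.28 in deleted and from 22.84 to 22.97 in wild-type tumours. The groups overlapped for each of ITGA2B, GP9 and GP1BA alone. Deleted tumour 4, with the highest P2RY1 of the deleted tumours, had the lowest sum, at 22.03. PF4 was not used here and PPBP was below the filter, and the part of platelets in the P2RY1 values was not tested.

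P2RY12, the Gi-coupled ADP receptor of platelets and microglia, is shown with both probes because they overlap by 47 bases, written in capitals, and are not independent measurements.
P2RY12, brighter probe, chr23:48962615-48962674: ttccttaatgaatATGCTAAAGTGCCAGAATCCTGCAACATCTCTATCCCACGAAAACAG
P2RY12, dimmer probe, chr23:48962602-48962661: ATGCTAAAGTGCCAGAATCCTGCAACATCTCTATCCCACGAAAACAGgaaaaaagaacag
They differed by -0.02 and -0.04 (SE 0.15 for each), and both were highest in wild-type tumour 2. All 4 adenosine receptors were members, from -0.20 for ADORA3 to 0.44 for ADORA2A, with 0 genes past an unadjusted p below 0.05.

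Lysophospholipid receptors bind lysophosphatidic acid or sphingosine 1-phosphate, and all 8 symbols had a member, 3 with a higher and 5 with a lower mean in deleted tumours. LPAR3 read 6.80, 7.07, 7.02 and 7.17 across deleted tumours 1 to 4, against 7.12, 7.42 and 7.42 for wild-type tumours 1 to 3. Only wild-type tumour 1 lay within the range of the deleted tumours. The difference was -0.31 ± 0.13 (SE, adjusted p = 0.693) and turned to 0.25 with 75th percentile scaling, or -0.07 relative to the median of all probes there.
LPAR1 differed by -0.24 ± 0.22 (SE, adjusted p = 0.897), an estimate that turned to 0.09 with 75th percentile scaling and to 0.16 with the slide as a block. It was highest in wild-type tumour 3, at 8.04, and both of its probes were highest there. S1PR1, the sphingosine receptor of lymphocytes and vessel lining, ran from 7.56 to 8.94 with no order by group, and its difference of 0.09 ± 0.39 (SE) turned negative under 6 of 19 other settings.

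ENPP2, or autotaxin, makes the lysophosphatidic acid that LPAR receptors bind. It read 8.72, 9.11, 9.08 and 10.63 across deleted tumours 1 to 4, against 11.50, 11.77 and 12.40 for wild-type tumours 1 to 3. Every deleted tumour lay below every wild-type tumour. The difference of -2.51 ± 0.48 (SE) had the smallest p of the pathway genes examined, but the adjusted p of 0.434 did not pass, and under the other settings the estimate lay between -2.92 and -2.25 with adjusted p of 0.141 or more.

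Prostanoid receptors bind prostaglandins and prostacyclin, and 6 of 7 symbols had a member. PTGER4, the Gs-coupled prostaglandin E2 receptor EP4, read 9.78, 9.31, 9.05 and 8.66 across deleted tumours 1 to 4, against 7.51, 8.49 and 9.15 for wild-type tumours 1 to 3. Wild-type tumours 1 and 2 lay below every deleted tumour, and wild-type tumour 3 lay among them. The difference of 0.82 ± 0.42 (SE) had an unadjusted p of 0.094 and an adjusted p of 0.757, and it was 0.38 without wild-type tumour 1. The arrays of wild-type tumours 1 and 2 were the most alike of any pair, yet wild-type tumour 1 lay 0.98 below wild-type tumour 2 in this gene. Wild-type tumour 2 lay close to deleted tumour 4.
PTGER4, chr4:71861483-71861542: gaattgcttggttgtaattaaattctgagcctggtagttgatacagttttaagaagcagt

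PTGFR, the Gq-coupled receptor of prostaglandin F2 alpha, was among the most variable receptors and is shown with its probe for that reason.
PTGFR, chr6:71519454-71519513: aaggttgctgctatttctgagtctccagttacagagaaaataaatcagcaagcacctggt
It read 7.83, 9.51, 7.46 and 6.57 across deleted tumours 1 to 4, against 8.32, 8.27 and 6.39 for wild-type tumours 1 to 3. Deleted tumour 4 and wild-type tumour 3 were not marked above background, and deleted tumour 2 stood 1.19 above the next. The difference was 0.18 ± 0.78 (SE, adjusted p = 0.981), and it was -0.38 without deleted tumour 2.

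PTGIR, the prostacyclin receptor, was singled out after its values were seen, since its groups did not overlap. It ran from 6.81 to 6.84 in deleted and from 6.86 to 6.94 in wild-type tumours, and differed by -0.08 ± 0.08 (SE, adjusted p = 0.899) that turned to 0.57 with 75th percentile scaling. Of the enzymes upstream, PTGS1, or cyclooxygenase-1, read 6.98, 6.49, 6.79 and 6.89 across deleted tumours 1 to 4, against 9.10, 8.99 and 6.70 for wild-type tumours 1 to 3. Wild-type tumours 1 and 2 stood more than 2 log2 units above all others, and wild-type tumour 3 lay among the deleted tumours. The difference was -1.48 ± 0.58 (SE) with an adjusted p of 0.665. Without wild-type tumour 3 it was -2.26, with an adjusted p of 0.0432 in limma that passed the call. That setting drops the 1 wild-type tumour that lay among the deleted ones. It leaves wild-type tumours 1 and 2, whose arrays were the most alike of any pair. Of all probes, 46 were called there and 0 with all 7 tumours.

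Peptide receptors had 10 members among 14 symbols and included the most variable receptors. SSTR5, a Gi-coupled somatostatin receptor, had the widest range of all 104 genes.
SSTR5, chr6:42650730-42650789: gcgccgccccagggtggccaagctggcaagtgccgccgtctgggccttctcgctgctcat
It read 9.16, 11.36, 8.32 and 7.83 across deleted tumours 1 to 4, against 8.17, 8.57 and 8.26 for wild-type tumours 1 to 3. Deleted tumour 2 stood 2.20 above the next tumour, and the lowest value was also in a deleted tumour. The difference was 0.84 ± 0.80 (SE, adjusted p = 0.902), and without deleted tumour 2 it was 0.11. SSTR2, which binds the same peptide, was lower by an estimate of -0.31 ± 0.13 (SE, adjusted p = 0.693), with deleted tumours at 6.71 to 7.01 and wild-type tumours at 6.91 to 7.32. It turned to 0.32 with 75th percentile scaling, 0.00 relative to the median of all probes.

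PTH1R, the Gs-coupled receptor of parathyroid hormone and its related protein, is carried by osteoblasts. Its probe is shown because its 60 bases map over 576 bases of the genome.
PTH1R, chr20:44904756-44905331: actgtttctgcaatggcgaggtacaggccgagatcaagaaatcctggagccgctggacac
It read 9.48, 8.71, 10.00 and 11.63 across deleted tumours 1 to 4, against 10.03, 9.14 and 10.61 for wild-type tumours 1 to 3. Deleted tumour 4 was highest and deleted tumour 2 lowest, with all wild-type tumours between them. The difference was 0.03 ± 0.70 (SE, adjusted p = 0.997), an estimate that turned to -0.17 with 75th percentile scaling and to -0.53 without deleted tumour 4. The osteoblast markers had median deviations from each gene's mean of 0.21, -1.38, -0.73 and 0.49 for deleted tumours 1 to 4 and of 0.65, -0.14 and 1.07 for wild-type tumours 1 to 3, lowest in the tumour with the lowest PTH1R but highest in wild-type tumour 3. Their summed log2 intensity over 5 of 9 genes ran from 50.8 to 60.8 in deleted and from 55.9 to 63.1 in wild-type tumours, SP7, IBSP, SPP1 and DMP1 were not used here, and their part in the PTH1R values was not tested.

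TACR1, the receptor of substance P, had probes of opposite sign and nearly no difference, at -0.05 ± 0.28 for the brighter and 0.03 ± 0.27 (SE) for the dimmer. Both were highest in deleted tumour 4.
TACR1, brighter probe, chr17:51248468-51248527: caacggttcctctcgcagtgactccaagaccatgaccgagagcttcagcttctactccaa
TACR1, dimmer probe, chr17:51248311-51248370: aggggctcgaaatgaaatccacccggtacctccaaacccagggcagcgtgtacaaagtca
The brighter probe read 8.01 in deleted tumour 4, 6.89 to 7.06 in the other deleted tumours and 7.17 to 7.48 in wild-type tumours. The dimmer probe read 7.58 in deleted tumour 4, 6.64 to 6.72 in the other deleted tumours and 6.70 to 7.19 in wild-type tumours. TACR3, singled out after its values were seen, differed by -0.08 ± 0.08 (SE, adjusted p = 0.900) and turned to 0.69 with 75th percentile scaling.

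Endothelin receptors act on vessel tone and on osteoblasts. EDNRA read 8.34, 7.50, 8.04 and 7.49 across deleted tumours 1 to 4, against 8.04, 8.23 and 7.08 for wild-type tumours 1 to 3, without order by group. Its probes had opposite signs, at 0.06 ± 0.34 and -0.18 ± 0.19 (SE), and the estimate of the brighter probe turned negative under 5 further settings, down to -0.46 with the slide as a block. The probes lie far apart in the gene.
EDNRA, brighter probe, chr15:48889562-48889621: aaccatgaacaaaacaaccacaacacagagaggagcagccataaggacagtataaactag
EDNRA, dimmer probe, chr15:48865622-48865681: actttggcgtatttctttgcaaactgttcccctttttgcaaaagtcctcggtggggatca
EDNRB lay between 7.60 and 7.65 in all 4 deleted tumours and read 6.97, 7.10 and 7.94 in wild-type tumours 1 to 3, so the deleted tumours fell inside the wild-type range. The difference was 0.29 ± 0.23 (SE, adjusted p = 0.868), and leaving out wild-type tumour 1, 2 or 3 gave 0.11, 0.17 or 0.59, the last with an adjusted p of 0.200. AGTR1, the angiotensin II receptor, differed by 0.07 ± 0.15 (SE, adjusted p = 0.957), and was -0.05 without deleted tumour 2, its highest tumour at 7.03.

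Of the protease-activated receptors, F2RL2 and F2RL3 were members, at 0.16 ± 0.17 and 0.12 ± 0.11 (SE). F2R, the thrombin receptor, was not analysed here.

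The group of orphan and adhesion receptors, taken by GPR symbol, was the largest, with 39 of the 104 genes. Some of its members, such as GPR171 and GPR55, have a ligand named below. The group held 4 of the 7 genes at an unadjusted p below 0.05. Of these 4, 2 were higher and 2 lower in deleted tumours. The share over all probes was 7.27%, and a count of 4 among 39 genes is too small to set this group apart. Within the group 21 means were higher and 18 lower in deleted tumours, and the median difference was 0.02.

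GPR85, an orphan receptor best known from brain, had the smallest p of all receptor genes and is shown with its probe for that reason.
GPR85, chr14:55529975-55530034: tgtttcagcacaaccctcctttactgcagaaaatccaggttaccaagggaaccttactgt
It read 6.55, 6.45, 6.57 and 6.51 across deleted tumours 1 to 4, against 7.12, 6.98 and 7.67 for wild-type tumours 1 to 3. Every wild-type tumour lay above every deleted tumour, and it was not well above background in any deleted tumour, so that it passed the background mark through the wild-type arrays alone. The fitted difference was -0.73 ± 0.17 (SE) with an unadjusted p of 0.00398 and an adjusted p of 0.494. A bound took, for each deleted array, its lowest signal well above background, or the probe's own signal where that was higher. Against it, intensity in wild-type tumours was 1.65-fold higher or more under the main normalization. The bound averaged 6.53 beside a measured deleted mean of 6.52, so it nearly repeats the estimate and does not cover other settings. Membership through the wild-type arrays alone also favours a difference in this direction. The fitted difference kept its sign under 18 other settings but ran from -4.08 to -0.12.

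GPR171, a receptor of the peptide BigLEN that is found on lymphocytes, read 7.67, 7.95, 7.40 and 7.18 across deleted tumours 1 to 4, against 6.80, 6.96 and 6.64 for wild-type tumours 1 to 3.
GPR171, chr23:48835786-48835845: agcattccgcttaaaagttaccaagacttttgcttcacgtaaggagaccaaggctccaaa
Every deleted tumour lay above every wild-type tumour. The difference was 0.75 ± 0.20 (SE) with an unadjusted p of 0.00681, an adjusted p of 0.505 and an exact p of 0.0571. Of 9 T and NK cell markers 5 were kept, of which CD3E, CD8A and GZMA stood at an unadjusted p below 0.05 and were also higher in every deleted tumour, while CD4 and NKG7 differed by -0.07 ± 0.17 and -0.18 ± 0.60 (SE). Their summed log2 intensity ran from 40.0 to 42.0 in deleted and from 38.1 to 39.6 in wild-type tumours. CD3D, CD3G, CD2 and GZMB were not used here, and the part of these cells in the GPR171 values was not tested.

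GPR137, an orphan membrane protein, read 10.33, 10.73, 10.63 and 11.29 across deleted tumours 1 to 4, against 9.94, 10.05 and 10.15 for wild-type tumours 1 to 3. The groups did not overlap on this probe or on a dimmer probe of the gene, and both were highest in deleted tumour 4. The differences were 0.70 ± 0.22 and 0.45 ± 0.17 (SE), with unadjusted p of 0.0164 and 0.0366 and adjusted p of 0.583 and 0.663.

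GPR55, which answers lysophosphatidylinositol, ran from 6.54 to 6.89 in deleted and from 6.90 to 7.20 in wild-type tumours, and differed by -0.32 ± 0.13 (SE, adjusted p = 0.669). With 75th percentile scaling it stood at 0.34, or 0.03 relative to the median of all probes there. GPR12, an orphan receptor that raises cyclic AMP without a ligand, differed by -0.28 ± 0.12 (SE, adjusted p = 0.698) and turned to 0.06 with that scaling, -0.25 relative to all probes. GPR125, an adhesion receptor, and GPR180 had higher means in deleted tumours, by 0.44 ± 0.24 and 0.29 ± 0.16 (SE), with adjusted p of 0.765 and 0.776.

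GPR39, a zinc-sensing receptor, and GPR146 were singled out after their values were seen, since their groups did not overlap. GPR39 read 7.38 in deleted tumour 1, 6.61 to 6.77 in the other deleted tumours and 6.51 to 6.55 in wild-type tumours, and was above background on 4 deleted arrays and 1 wild-type array. The difference was 0.34 ± 0.20 (SE, adjusted p = 0.787), and 0.16 without deleted tumour 1. GPR146 lay between 7.04 and 7.09 in deleted and between 6.97 and 7.00 in wild-type tumours, and differed by 0.08 ± 0.08 (SE, adjusted p = 0.903).

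**Figure D2:**
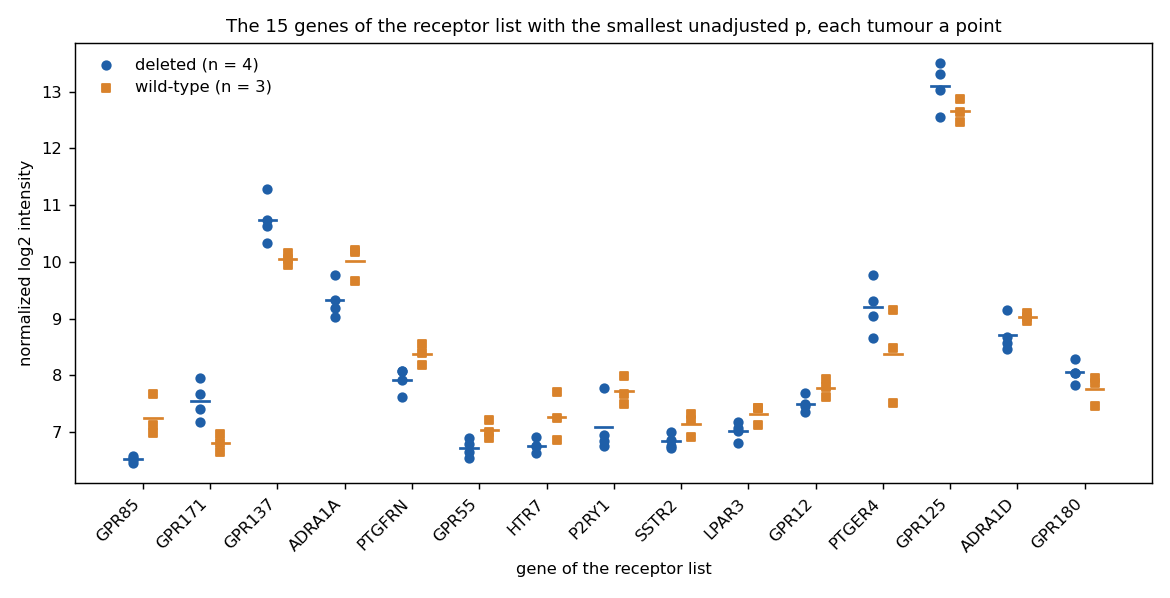
Normalized log2 intensity of the 15 genes of the receptor list with the smallest unadjusted p, with each of 4 deleted tumours a circle, each of 3 wild-type tumours a square and the group means as lines. Of the genes plotted, GPR85, GPR171, GPR137, PTGFRN and GPR55 have groups that do not overlap, and none has an adjusted p below 0.494. The sign of GPR55, HTR7, SSTR2, LPAR3 and GPR12 turned with 75th percentile scaling of background-corrected intensities and held with that of processed ones.

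GPR116, an adhesion receptor found in vessel lining and lung, read 11.50, 11.59, 13.07 and 12.64 across deleted tumours 1 to 4, against 10.83, 11.97 and 11.45 for wild-type tumours 1 to 3. Deleted tumours 3 and 4 stood above all others. The difference was 0.78 ± 0.47 (SE, adjusted p = 0.793), and its dimmer probe gave 0.15 ± 0.17 (SE). Endothelial markers had 6 of 8 genes kept, TEK and ESAM below the filter, and a summed log2 intensity of 56.5 to 63.1 in deleted and 53.8 to 57.6 in wild-type tumours, highest in deleted tumour 3. Their part in the GPR116 values was not tested.
GPR137B, a lysosomal relative of GPR137, read 8.24, 8.69, 8.54 and 7.49 across deleted tumours 1 to 4, against 8.57, 8.20 and 9.26 for wild-type tumours 1 to 3, with its extremes in deleted tumour 4 and wild-type tumour 3. The difference of -0.43 ± 0.36 (SE, adjusted p = 0.876) turned to 0.42 with the slide as a block. Osteoclast markers, 5 of 7 kept, had their highest median deviation in wild-type tumour 3, at 2.77, and their lowest in deleted tumours 1 and 4, at -1.44 and -1.29, where GPR137B read 8.24 and 7.49, with a summed log2 intensity of 48.8 to 58.3 in deleted and 51.8 to 67.0 in wild-type tumours. OSCAR and DCSTAMP were not used here, and the part of osteoclasts in the GPR137B values was not tested.

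Among the genes that carry a matching symbol without being such receptors, PTGFRN read 8.08, 8.07, 7.92 and 7.62 across deleted tumours 1 to 4, against 8.56, 8.40 and 8.18 for wild-type tumours 1 to 3. Every deleted tumour lay below every wild-type tumour, with a difference of -0.46 ± 0.15 (SE), an unadjusted p of 0.0211 and an adjusted p of 0.610. GPR172A read 12.67 and 12.62 in deleted tumours 2 and 4 but 11.14 to 11.76 elsewhere, a difference of 0.31 ± 0.42 (SE, adjusted p = 0.927) that fell to 0.00 with 75th percentile scaling.

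**Figure D3:**
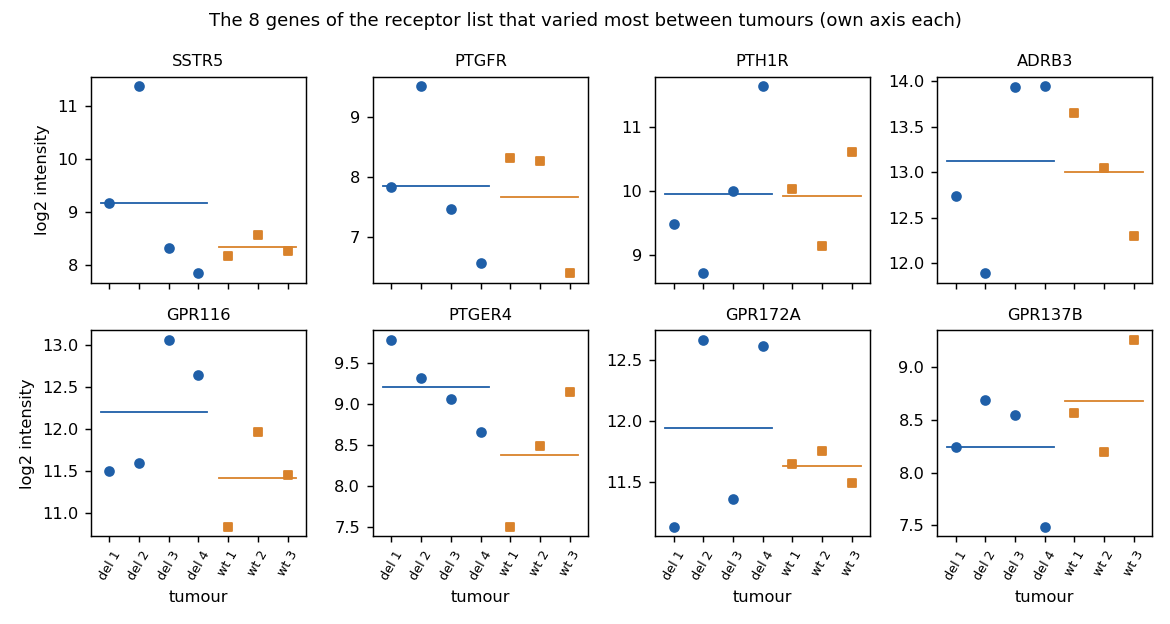
Normalized log2 intensity, on an axis of its own for each gene, of the 8 genes with the largest SD over the 7 tumours (del 1 to del 4, deleted; wt 1 to wt 3, wild-type), with group means as lines. In SSTR5 and PTGFR deleted tumour 2 stands apart, at 11.36 and 9.51, and in PTH1R deleted tumour 4, at 11.63.

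The receptors that stood out in single tumours differed from tumour to tumour. A gene was counted for a tumour when it was highest there by at least 0.5 on the log2 scale. Deleted tumour 4 held 6 such genes, GPR137, GPR176, GPR89A, PTGER3, PTH1R and TACR1, deleted tumour 1 held DRD2, GPR39 and GPR64, deleted tumour 2 held PTGFR and SSTR5, and wild-type tumour 3 held GPR137B, GPR85 and LPAR1. The other tumours held 0. PTGER3, a Gi-coupled prostaglandin E2 receptor also found in fat, read 8.03 in deleted tumour 4 and 6.49 to 7.22 in the others. In the same tumour the adipocyte markers ADIPOQ, PLIN1, CIDEC and LPL were highest, with ADIPOQ at 13.37 against 6.92 to 7.85 elsewhere, while LEP was lowest there, at 7.96 against 8.00 to 8.26. All 5 genes of that list were kept, and their summed log2 intensity was 52.8 in this tumour, 36.3 to 37.9 in the other deleted tumours and 36.6 to 37.3 in wild-type tumours. Deleted tumour 2, with the highest SSTR5 and PTGFR, had the highest median deviation of the cartilage markers, at 1.92, followed by deleted tumour 3 at 1.21. All 6 cartilage markers were kept, with a summed log2 intensity of 49.3 to 67.3 in deleted and 49.1 to 53.7 in wild-type tumours. The part of fat or cartilage in these receptor values was not tested.

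Of the 15 genes with 2 or more member probes, 12 had probes of 1 sign, and ADRA2A, EDNRA and TACR1 did not. For 9 of the 15, all probes were highest in 1 and the same tumour. Probes of 1 gene share the RNA and are not replicates of the comparison.

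**Figure D4:**
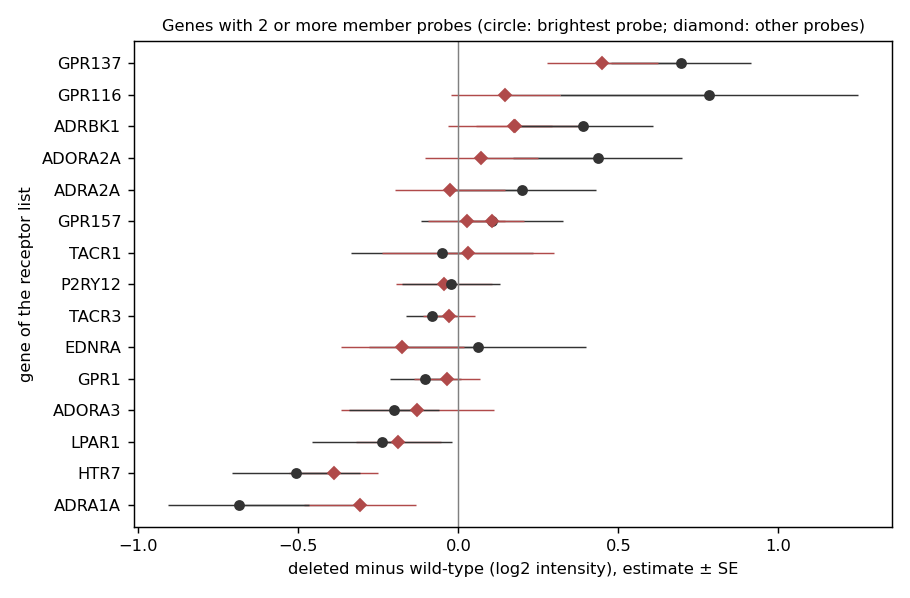
Estimated difference, deleted minus wild-type on the log2 intensity scale, with its standard error, for each probe of the 15 genes with 2 or more member probes; circles are the probe used for the gene and diamonds its other probes. Probes of GPR137 lie at 0.70 and 0.45 and those of ADRA1A at -0.69 and -0.31, while those of ADRA2A, EDNRA and TACR1 fall on both sides of 0.

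Within the slide shared by both groups, and within each extraction session, all 15 genes of smallest p kept the direction of their difference. Over the 104 genes the direction was kept by 78 within the slide and by 80 within each session. The 15 genes were picked for small p on these same arrays, so their agreement was favoured in advance and says nothing on batch. These batches hold 1 or 2 wild-type tumours each and were compared as values, without a test.

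The genes around the receptors were read from lists of ligand-making enzymes and peptides, G protein subunits, effectors, shut-off genes and response genes, 102 of which had a kept probe. None was called, and 11, or 10.8%, stood at an unadjusted p below 0.05 beside 7.27% of all probes, 8 with a higher and 3 with a lower mean in deleted tumours. This count was 3 without wild-type tumour 1 and 7 without wild-type tumour 2. The smallest adjusted p was 0.434 and the median difference 0.04.

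Ligand genes held 3 of these among 24 kept, ENPP2 and PTGS1, described with their receptors, and ADM, or adrenomedullin, a vessel-widening peptide. ADM ran from 9.17 to 10.17 in deleted and from 8.54 to 8.88 in wild-type tumours without overlap, and differed by 0.91 ± 0.27 (SE, adjusted p = 0.566). Of 10 alpha subunits, GNAS, which encodes Gs alpha, differed by -0.37 ± 0.15 and GNAQ, which encodes Gq alpha, by 0.27 ± 0.11 (SE), with adjusted p of 0.673 and 0.684. Neither overlapped between groups. The 14 beta and gamma subunits and the 25 adenylyl cyclases, phospholipases and kinases downstream held 0 genes past an unadjusted p below 0.05.

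Of 16 shut-off genes, 9 had a higher and 7 a lower mean in deleted tumours, with a median difference of 0.03. The cyclic AMP phosphodiesterases PDE3B, PDE4B and PDE8A were higher at an unadjusted p below 0.05 in limma, as were 3.1% of all probes. They differed by 0.39 ± 0.14, 0.56 ± 0.22 and 0.36 ± 0.12 (SE), with adjusted p of 0.634, 0.678 and 0.587. The other kept phosphodiesterases lay between -0.08 for PDE7B and 0.14 for PDE10A. PDE3B and PDE8A did not overlap between groups, and PDE4B did. The receptor kinases ADRBK1 and ADRBK2 differed by 0.39 ± 0.22 and 0.08 ± 0.15 (SE). Of 13 response genes 10 had a higher mean in deleted tumours, with a median difference of 0.32, and JUNB, PER1 and DUSP1, which are induced early by cyclic AMP and other signals, stood at 0.24 ± 0.08, 0.69 ± 0.28 and 0.84 ± 0.22 (SE). Their adjusted p were 0.612, 0.683 and 0.507, so that 0 of the 13 were called.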

How the data were processed

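RNA of 7 tumours was hybridised by the authors to 1-colour Agilent canine arrays, 1 per tumour. The deposited files hold spot and local background intensity on a linear scale and a processed intensity, as written by Agilent Feature Extraction 10.7.3.1. Mean intensity was corrected with the local background by normexp (offset 50) in limma 3.58.1 (R 4.3.3), quantile-normalized and put on the log2 scale, from the deposited intensity. Control spots and 144 values that the scanner software called outliers were dropped, and replicated spots were averaged to 43603 probes, of which 32309 were kept. Gene names and canFam2 coordinates were those of the files, and exon or untranslated position was not analysed here. A gene took its probe with the highest mean. Groups were compared with lmFit and eBayes, two-sided, without covariates, and single genes also with an exact permutation test. The script was tested on simulated data. The small number of arrays limits precision. The limma p-values set each group difference against the spread between these tumours, moderated over all probes.

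The members and lists were chosen with earlier results of these data known. Genes named were the 15 of smallest p, the 8 of largest SD, 11 with known roles in bone, vessels or tumours, of which 9 were members and 1 is not reported here, genes whose probes had opposite signs, and pathway genes at an unadjusted p below 0.05. Genes named as the ends of a family's range or as highest in a tumour, or for groups that did not overlap, were picked after their values were seen. Alternatives covered background correction, scaling, filter, probe choice, slide, session, sex label, model settings, the methods' t-test, wild-type tumours 1 and 2 as 1 tumour, and each tumour left out.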

Additional observations from a re-analysis of the deposited data

Results flagged for a closer look

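TACR1 was highest in deleted tumour 4, at 8.01 against 7.06 in the next deleted tumour, a gap of 0.844 of the range of the 4 deleted tumours. AGTR1 was highest in deleted tumour 2, at 7.03 against 6.59, a gap of 0.893 of that range. These were 2 of 34 groups of 4 examined, where about 1 in 20, or 1.7, would pass by chance. A difference of the receptor probes between sex labels in the deleted minus wild-type contrast was looked for with an interaction term in limma. It passed an adjusted p below 0.1 for 0 of 121 probes and an unadjusted p below 0.05 for 5, with a smallest adjusted p of 0.347.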

How the results depend on the processing

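No paired analysis was possible because the labels give no number that the groups share. The receptor count called stayed at 0 under every alternative, and 805 values of single genes under the alternatives kept their direction and side of the threshold. The cause of the changes below was not tested. The arrays number 7, so small differences were not detectable.

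The count of all probes called was 8 with array weights, 4 with limma's trend and robust options, 23 with normexp and 75th percentile scaling, 10 with processed signals and that scaling, 4 with processed signals and quantile normalization, and from 0 to 46 when a tumour was left out, 46 being without wild-type tumour 3. Receptor genes at an unadjusted p below 0.05 were 13, 11, 2, 13 and 12 under the first 5 of these, 3 with the slide as a block, 4 with wild-type tumours 1 and 2 as 1 tumour, and 3 to 11 with a tumour left out. Genes without overlap were 18 with normexp and 75th percentile scaling, 16 with wild-type tumours 1 and 2 as 1, and 12 to 19 with a tumour left out. The median difference of the receptor genes was 0.55 with normexp and 75th percentile scaling, where all probes shifted by 0.32, and -0.13 with processed signals and that scaling, where they shifted by -0.06. Pathway genes at an unadjusted p below 0.05 were 7 with the methods' t-test, 7 with normexp and 75th percentile scaling, 7 with the slide as a block, 6 with wild-type tumours 1 and 2 as 1, and 3 to 12 with a tumour left out.

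Single genes changed sign as follows. Array weights gave ADRB3 -0.14, EDNRA -0.14, PTGFR -0.23 and S1PR1 -0.093. The session as a term gave AGTR1 -0.0061, PTGFR -0.0010 and S1PR1 -0.21. Normexp with 75th percentile scaling gave ADRB3 -0.19, GPR12 0.065, GPR172A -0.0016, GPR55 0.34, HTR7 0.071, LPAR1 0.093, LPAR3 0.25, PTGIR 0.57, PTH1R -0.17, SSTR2 0.32, TACR1 0.47 and TACR3 0.69. The other probe gave ADRA2A -0.026, EDNRA -0.18 and TACR1 0.030. Processed signals gave PTH1R -0.039 with 75th percentile scaling and PTH1R -0.049 with quantile normalization. The slide as a block gave ADRB3 -0.13, EDNRA -0.46, GPR137B 0.42, LPAR1 0.16 and S1PR1 -0.013, and wild-type tumours 1 and 2 as 1 gave PTH1R -0.14. With a tumour left out, ADRB3 ran from -0.22 to 0.54, turning without deleted tumour 3 or 4 or wild-type tumour 3. AGTR1 ran from -0.046 to 0.13, turning without deleted tumour 2, EDNRA from -0.29 to 0.28, turning without deleted tumour 1 or 3 or wild-type tumour 3, and LPAR1 from -0.41 to 0.0030, turning without wild-type tumour 3. PTGFR ran from -0.45 to 0.61, turning without deleted tumour 2 or wild-type tumour 3, and PTH1R from -0.53 to 0.45, turning without deleted tumour 4 or wild-type tumour 2. S1PR1 ran from -0.20 to 0.36, turning without deleted tumour 3 or 4 or wild-type tumour 3, and TACR1 from -0.31 to 0.063, turning without deleted tumour 1, 2 or 3 or wild-type tumour 3. PTGS1 was called, at -2.26, without wild-type tumour 3.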
